A study of Mus musculus with 10 samples.

Results

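The transcription factors E2A and HEB were lost singly or together in CD4 CD8 double-positive (DP) thymocytes, and all 10 arrays of the series were used to ask which transcripts depart from the sum of both single losses. The measure was the interaction DKO - E2AKO - HEBKO + WT on the log2 scale, which is 0 where the change in the double knockout equals the sum of the changes in both single knockouts. Every gene whose signal exceeded the 40th percentile on 2 or more arrays entered, which was 13138 of the 19937 genes named on the array. No gene was chosen by its response.

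Each array held RNA of DP cells sorted from the thymus of 1 mouse 8 weeks old, with about 1000000 cells at over 98% purity and 6 µg of total RNA, per the labels. The groups were wild-type cd4-cre+ mice (WT, n = 3), E2Aflox/flox Cd4-cre+ mice (E2AKO, n = 2), HEBflox/flox cd4-cre+ mice (HEBKO, n = 2) and E2Aflox/flox HEBflox/flox cd4-cre+ mice (DKO, n = 3). All groups, the controls included, carried Cd4-cre, and the recombinase is driven from Cd4 regulatory sequence, so deletion follows the onset of Cd4 expression late in the transition to the DP stage. Sorted cells can therefore hold transcript and protein made before deletion, and in bulk RNA fewer cells of a kind and less RNA per cell cannot be told apart.

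E2A (encoded by Tcf3) and HEB (encoded by Tcf12) are E proteins, basic helix-loop-helix factors that bind the E-box motif CANNTG as homodimers or as heterodimers with each other. Id proteins pair with E proteins and keep them off DNA. In DP thymocytes the E proteins are known for holding cells at that stage while the T cell receptor alpha locus recombines, and T cell receptor signals lower their activity through Id3 as cells mature. Because either factor can fill a dimer, a target may respond to the loss of both and to neither single loss, or may depend mainly on 1 of them.

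Promoter windows of 4 genes are printed because they stand for the patterns described here: Il18r1 and Il18rap, neighbours that departed from the sum together, Cd5, which departed from it in the other direction, and Myzap, which changed nearly as much with loss of HEB alone as with loss of both. Each is the 250 bases before the start of the gene in RefSeq, assembly GRCm38.p6, 5′ to 3′ in the direction of the gene, with every CANNTG in capitals. They lie at chr1:40465302-40465551 on the plus strand, chr1:40515112-40515361 on the plus strand, chr19:10738975-10739224 on the minus strand and chr9:71592361-71592610 on the minus strand.
Il18r1: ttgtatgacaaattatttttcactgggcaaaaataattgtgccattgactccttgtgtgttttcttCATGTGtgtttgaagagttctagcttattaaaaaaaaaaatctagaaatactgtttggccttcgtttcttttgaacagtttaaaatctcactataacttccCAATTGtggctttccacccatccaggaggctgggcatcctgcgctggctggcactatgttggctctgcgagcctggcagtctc
Il18rap: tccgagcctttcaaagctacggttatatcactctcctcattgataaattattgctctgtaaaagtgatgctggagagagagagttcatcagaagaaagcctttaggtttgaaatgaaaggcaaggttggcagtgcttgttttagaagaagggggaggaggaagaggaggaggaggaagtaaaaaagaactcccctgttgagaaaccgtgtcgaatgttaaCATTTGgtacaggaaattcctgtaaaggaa
Cd5: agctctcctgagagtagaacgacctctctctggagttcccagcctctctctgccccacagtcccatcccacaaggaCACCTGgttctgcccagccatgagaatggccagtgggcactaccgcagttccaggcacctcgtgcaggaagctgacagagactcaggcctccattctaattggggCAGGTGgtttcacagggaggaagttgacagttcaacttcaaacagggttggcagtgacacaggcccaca
Myzap: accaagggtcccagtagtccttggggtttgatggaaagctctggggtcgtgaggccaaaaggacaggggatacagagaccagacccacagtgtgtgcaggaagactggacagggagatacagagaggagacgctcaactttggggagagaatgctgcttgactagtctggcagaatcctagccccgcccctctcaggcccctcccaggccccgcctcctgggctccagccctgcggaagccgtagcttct
The Il18r1 window holds 2 such motifs, beginning 184 and 83 bases before the start, and the Il18rap window holds 1, at 30 bases. The Cd5 window holds 2, at 174 and 69 bases, and both are the same core read on opposite strands, CACCTG and CAGGTG. The Myzap window holds 0.

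The arrays were alike in scale, with median intensities over all probe sets from 92.6 to 98.6, and each genotype held both sexes by sex-linked transcripts. Of the defining DP markers, Cd8a was bright in all groups, at 13.09, 13.10 and 13.10 (log2 intensity) in WT and 12.57, 12.66 and 12.71 in DKO. That is a fall of -0.45 ± 0.10 in DKO (limma adjusted p = 0.00959). Other DP markers fell further, with Cd4, Rag1 and Rag2 in DKO at 27.2%, 32.1% and 25.6% of the WT mean. The targeted genes had lower means in their knockouts. Relative to the WT mean, Tcf3 stood at 68.9% with E2A lost, 126% with HEB lost and 63.5% with both lost, and Tcf12 at 107%, 69.6% and 45.8% in the same order (from means of log2 values). Both fell in DKO (adjusted p = 0.00256 and 3.07e-05), while Tcf3 in E2AKO and Tcf12 in HEBKO did not pass the test (adjusted p = 0.998 and 0.0657). Their interactions were -0.45 ± 0.18 (adjusted p = 0.476) and -0.71 ± 0.16 (adjusted p = 0.104) and neither passed the test, while Tcf12 differed between DKO and HEBKO by -0.61 log2 units (adjusted p = 0.0136). Each is read by 1 probe set over the transcript and does not measure how complete the deletion was.

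Loss of both factors gave a change other than the sum of the single losses for a small set of genes, and more of the called departures were upward than downward. The interaction was called for 83 of 13138 genes (0.632%) by limma at a Benjamini-Hochberg adjusted p under 0.05, 67 positive (0.51%) and 16 negative (0.122%). Of these, 55 positive (0.419% of the genes tested) and 11 negative (0.0837%) departed by at least 1 log2 unit. At an unadjusted p under 0.05 by limma the 2 directions were less unequal, with 659 positive and 484 negative. The positive calls included Il18r1, S1pr1, Ccr7, Ms4a4b and Cd226, receptors and membrane proteins of mature or activated T cells. The negative ones included Cd5, Plxnd1, Cd6, Cd4, Myb and Lig4. Of the 67 positive calls 65 also rose in DKO against WT, and all 16 negative calls fell. The other 2 were Tdrp and Carns1, named here after their values were seen. Tdrp read 8.15, 7.93 and 8.13 in WT, 7.97 and 7.98 with E2A lost and 7.12 and 7.28 with HEB lost, and 8.11, 8.10 and 8.47 with both lost, so it was low with HEB lost alone and in the WT range or above it with both lost. Its fall in HEBKO was -0.87 ± 0.13 (adjusted p = 0.0175), its DKO difference 0.15 ± 0.12 (adjusted p = 0.468) and its interaction 1.12 ± 0.19 (adjusted p = 0.0179), a call lost without WT 3, E2AKO 1, E2AKO 2 or HEBKO 1. These 2 and B3gnt5, among the negative calls, were the called genes whose DKO change was smaller in size than the sum, and in all 3 the sum had the opposite sign to the DKO change. The same WT and DKO arrays enter that contrast and the interaction, so the matching direction is no separate evidence.

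In WT the 67 genes were dim and the 16 were bright. Their median log2 intensity was 7.41 and 10.55, against 7.88 over all genes tested. The median difference from WT for the 67 was -0.03 in E2AKO, 0.08 in HEBKO and 1.70 in DKO. For the 16 it was -0.08, -0.42 and -1.67. All 3 DKO arrays lay above all 7 others for 66 of the 67, where 7.24% of all genes tested did so, and below them for 16 of 16, where 5.15% did. The calls rest on these DKO values, so both counts only describe them. The 40th percentile, taken here as the mark of dim signal, was 6.03 to 6.13 on these arrays. All 7 arrays outside DKO lay below it for 7 of the 67, so those genes entered the test only through their DKO values, as did 28 of the genes tested in all.

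**Figure D1:**
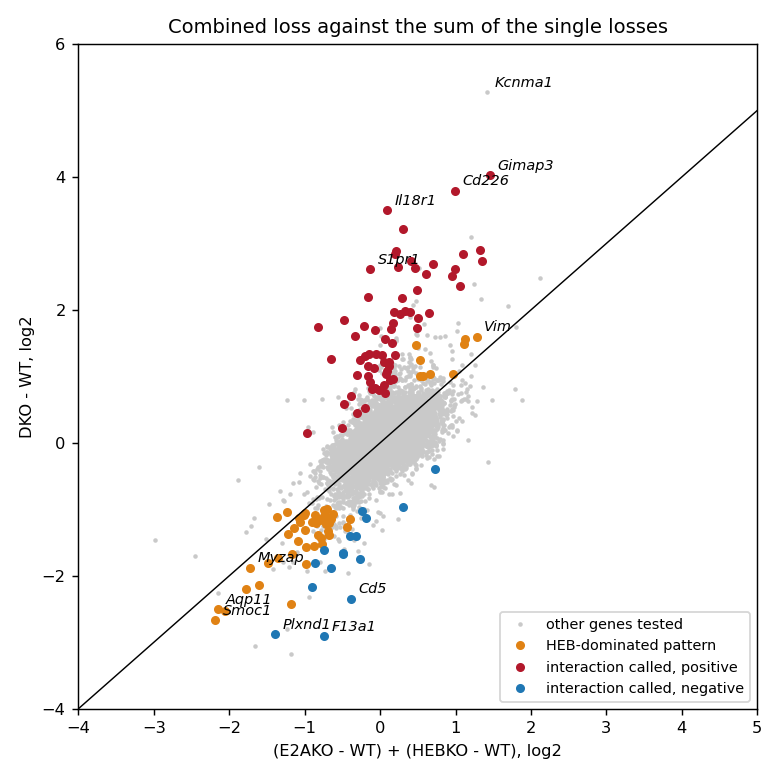
Each point is 1 of the 13138 genes tested, with the sum of both single-knockout differences from WT (log2) on the x axis and the difference of DKO from WT (log2) on the y axis. The line marks equality. The 67 positive calls lie above the line, led by Il18r1 at an interaction of 3.40, and the 16 negative calls lie below it, led by F13a1 at -2.16. The 52 HEB-dominated genes have no interaction call by their rule. Fmnl2 among them, at -1.24, lies farther from the line than some called genes, such as Bcl2l1 at -0.87.

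The scale, single arrays and a block by replicate number moved these counts. With additivity taken on linear intensities, 23 genes were called, 22 positive and 1 negative, all among the 83, and the count was 27 without E2AKO 1 and 121 without HEBKO 1. The 1 negative call on the linear scale was B3gnt5. With the replicate number as a block 43 genes were called, 40 of them among the 83. Calls not kept there included Cd226, Gimap3, Il2ra, Il12rb2, Ms4a4b, Ms4a6b, Slfn2, Tdrp, Cd4, Lig4, Mr1, B3gnt5 and Bcl2l1. In none of the alternatives run did a called gene turn its sign.

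To sort the larger changes, the 276 genes called in DKO against WT (13.6% of the genes tested were called) that moved by at least 1 log2 unit (2.1%), 144 up and 132 down, were classed by their single losses. For 27 of them (0.206% of the genes tested), 24 up and 3 down, the interaction was called while the 95% intervals of both single losses lay inside 1.5-fold of WT. This class is named redundant here. Another 27 genes (0.206%), 17 up and 10 down, had an interaction call together with a single-loss interval that excluded 0 on the same side. In 13 more (0.0989%), 12 up and 1 down, the interaction was called but the single losses were not resolved. For 1 gene of the 276 the interaction opposed the DKO change at an unadjusted p under 0.05, against 204 with the same sign. That gene, named after its values were seen, was Cldn4, a tight junction protein, with -0.71 in E2AKO, -1.01 in HEBKO, -1.26 in DKO and an interaction of 0.46 ± 0.19 (adjusted p = 0.504). Only 5 genes (0.0381%), all down, had no call and an interaction interval inside 1.5-fold, the range taken here as additive. The remaining 204 (1.55%) were unresolved, with a median interaction SE of 0.18 over all genes tested, and a missed threshold there does not show additivity. Without HEBKO 2 the redundant class held 8 genes, without E2AKO 1 it held 9, without WT 3 it held 13, and 31 without HEBKO 1.

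The leading departure was in the receptor for interleukin 18, a cytokine that acts on effector and innate-like T cells. Il18r1, its ligand-binding chain, read 5.11, 4.85 and 5.17 (log2 intensity) in WT, 4.73 and 4.96 with E2A lost, 5.39 and 5.30 with HEB lost and 8.54, 8.45 and 8.64 with both lost, where the sum of single losses gives 5.14. The DKO arrays stood apart from the other 7, all of which were below the dim mark. Among those 7 the HEBKO arrays lay above the WT and E2AKO arrays, which overlapped each other. The interaction was 3.40 ± 0.18 (adjusted p = 3.96e-06). With dim values raised to the 40th percentile it was 2.50 and still called. Il18rap, the accessory chain of the same receptor and the next gene on the chromosome, read 5.29, 4.98 and 4.85 in WT, 4.80 and 4.98 in E2AKO, 4.93 and 4.77 in HEBKO and, with both lost, 6.48, 6.55 and 6.93. Its interaction was 1.95 ± 0.23 (adjusted p = 0.00224), and again only the DKO arrays were above the dim mark. With dim values raised to the 40th percentile that interaction was 0.62 (adjusted p = 0.243) and was not called.

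Other cytokine receptor genes differed among themselves. Il2ra, the alpha chain of the interleukin 2 receptor, read 6.33, 6.57 and 6.22 in WT, 6.90 and 6.86 in E2AKO and 6.21 and 6.10 in HEBKO, against 8.80, 7.96 and 8.87 in DKO, with an interaction of 1.89 ± 0.31 (adjusted p = 0.0184). Its E2AKO arrays lay above all WT arrays and its HEBKO arrays below them, so the single losses leaned opposite ways. Il12rb2, a signalling chain of the interleukin 12 receptor, read 6.47, 6.88 and 6.33 in WT and 7.85 and 7.24 in HEBKO, between WT and the 9.13, 9.01 and 9.39 of DKO, with an interaction of 1.63 ± 0.29 (adjusted p = 0.0299). Il7r, the interleukin 7 receptor that sustains resting T cells, read 5.22, 6.00 and 5.69 in WT, 5.87 and 6.55 with E2A lost, 6.90 and 5.64 with HEB lost and 8.55, 8.55 and 9.12 with both lost. Its interaction of 1.90 ± 0.49 (adjusted p = 0.147) missed the threshold, with a 95% interval of 0.84 to 2.96 and HEBKO arrays on both sides of the dim mark. Of the 18 tested members of a list of cytokine receptors and JAK-STAT genes, 3 had a positive call and 0 a negative one. The shares over all genes tested were 0.51% and 0.122%. The list had a median interaction of 0.43 against 0.02 over all genes tested. Il17rb, a receptor of interleukin 25, was HEB-dominated, and Il4ra, the interleukin 4 receptor, fell in DKO (-1.25 ± 0.13) with an interaction of -0.49 that did not pass. The call of Il2ra was lost without WT 2, E2AKO 1, E2AKO 2 or HEBKO 2, and that of Il12rb2 without WT 1, WT 2, E2AKO 1, E2AKO 2, HEBKO 2, DKO 1 or DKO 3.

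Egress and homing genes were also called. S1pr1, the sphingosine phosphate receptor that takes mature thymocytes into blood, read 6.37, 6.19 and 6.14 in WT, 6.19 and 6.05 in E2AKO, 6.60 and 5.83 in HEBKO and, with both lost, 9.45, 8.04 and 9.03, against an expected 6.10. The single losses scattered around the WT range, while the DKO arrays stood apart above it. The interaction was 2.74 ± 0.46 (adjusted p = 0.0203), a call lost without WT 1, WT 2, WT 3, E2AKO 1, E2AKO 2, HEBKO 2 or DKO 3. Ccr7, the receptor that guides positively selected thymocytes to the medulla, read 7.65, 7.47 and 7.41 in WT, 7.44 and 7.66 in E2AKO and 8.17 and 7.25 in HEBKO, against 10.12, 10.03 and 10.32 in DKO. HEBKO 1 was above WT and HEBKO 2 below it, and the DKO arrays were above all. Its interaction was 2.40 ± 0.30 (adjusted p = 0.00334) and passed in every alternative run.

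The list of mature single-positive and egress genes held 18 tested members, with a median interaction of 1.06 and a lowest of -1.13. Of these members 6 had a positive call and 0 a negative one, against 0.51% and 0.122% of all genes tested. In DKO 14 of the 18 rose and 3 fell, against 8.18% and 5.41% of all genes tested. The median difference of the list from WT was -0.02 in E2AKO, 0.22 in HEBKO and 1.52 in DKO. The called members were Ms4a4b, S1pr1, Gimap3, Ccr7, Slfn1 and Ms4a6b. Itgb7, an integrin chain of gut homing, and Foxo1, a factor that drives Klf2 and Il7r, were near the threshold at 1.37 ± 0.29 (adjusted p = 0.0675) and 1.47 ± 0.30 (adjusted p = 0.0545). Klf2, which itself promotes S1pr1 expression, rose in DKO by 0.78 ± 0.17 and its interaction of 0.67 ± 0.27 (adjusted p = 0.482) did not pass. Bcl2, a survival gene of single-positive cells, fell in DKO (-0.61 ± 0.18), with an interaction of -1.01 that did not pass. By array, the list median stood 0.48 above the WT mean in HEBKO 1 and at -0.05 in HEBKO 2, and its median interaction was 1.54 without HEBKO 1 and 0.79 without E2AKO 1. These genes mark single-positive cells, and whether such cells in the sorted samples had a part in the result was not tested.

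Ms4a and Gimap genes are 2 families of lymphocyte membrane and GTPase proteins that each sit in a gene cluster. They had 3 interaction calls among 6 tested and 1 among 8 tested, respectively, where 0.632% of all genes tested had a call. HEBKO differed from WT for 1 gene of the Ms4a list and 1 of the Gimap list. Ms4a4b, a membrane protein of mature T cells, read 6.34, 6.68 and 6.69 in WT, 6.16 and 6.61 with E2A lost, 7.77 and 6.36 with HEB lost and 9.77, 9.35 and 10.27 with both lost, with an interaction of 2.92 ± 0.49 (adjusted p = 0.0203). Ms4a6b read 8.84, 9.12 and 8.88 in WT, 8.97 and 9.04 in E2AKO, 10.13 and 9.77 in HEBKO and, with both lost, 11.39, 11.02 and 11.51, so HEB loss gave 42.6% of its DKO change and the interaction was 1.30 ± 0.22 (adjusted p = 0.023). All 3 tested members of the Ms4a list (Ms4a4b, Ms4a6b and Ms4a6c) had a positive call, and 5 listed members were too dim to be tested. Ms4a8a, Ms4a10 and Ms4a15, which are not in that list, were tested and had no call. The call of Ms4a4b was lost without WT 2, WT 3 or E2AKO 1, of Ms4a6b without WT 2, WT 3, E2AKO 1, E2AKO 2, HEBKO 2, DKO 1 or DKO 3 and of Ms4a6c without E2AKO 1. With no intensity filter the median of that list was 0.44. HEBKO 1 exceeded HEBKO 2 here too, at 1.19 and 0.18 for the list median.

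Of 8 Gimap genes, 6 rose in DKO (8.18% of all genes tested rose) and 1, Gimap3, had an interaction call. Gimap3 read 5.92, 6.22 and 5.78 in WT, 6.01 and 6.41 in E2AKO and 7.79 and 6.60 in HEBKO, against 9.67, 10.09 and 10.23 in DKO, with an interaction of 2.57 ± 0.41 (adjusted p = 0.0139). Its WT, HEBKO and DKO arrays did not overlap, and the call was lost without E2AKO 1. Gimap4 and Gimap7 had HEBKO differences of 1.02 and 0.90 beside DKO differences of 2.16 and 1.81, and their interactions of 0.82 and 0.78 did not pass.

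Genes of innate sensing and quiescence formed a further group of positive calls. Card6, a CARD-domain protein linked to NF-kappaB signalling, read 5.93, 5.56 and 6.02 in WT, 5.83 and 6.05 with E2A lost, 6.12 and 5.74 with HEB lost and 8.80, 8.38 and 8.83 with both lost, with an interaction of 2.65 ± 0.25 (adjusted p = 0.000759). Its single-loss arrays overlapped WT. Of 8 Schlafen genes tested, a family tied to T cell quiescence, 3 were called, where 0.632% of all genes tested were. Slfn5 stood at 10.25, 10.08 and 10.54 in DKO against 7.81, 8.18 and 8.27 in WT (2.36 ± 0.32 (adjusted p = 0.00588)), and Slfn1 and Slfn2 had interactions of 2.33 ± 0.40 (adjusted p = 0.0215) and 1.13 ± 0.20 (adjusted p = 0.0278). Slfn3 had -0.35 ± 0.27, not past the test. The call of Slfn1 was lost without WT 1, WT 2, WT 3, E2AKO 1, E2AKO 2 or HEBKO 2, and that of Slfn2 without WT 1, WT 2, WT 3, E2AKO 1, E2AKO 2, HEBKO 1, DKO 1 or DKO 3.

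The interferon-inducible Ifi200 genes, which encode DNA-sensing proteins, gave 4 calls among 6 tested, all positive (0.51% of all genes tested had a positive call). The 4 were Ifi206, Ifi208, Ifi213 and Ifi214. Ifi208 read 6.12, 6.59 and 6.42 in WT, 5.38 and 6.31 in E2AKO, 5.89 and 6.27 in HEBKO and, with both lost, 8.41, 8.05 and 7.90, with an interaction of 2.58 ± 0.35 (adjusted p = 0.00641). Ifi214 was below the dim mark in all 7 arrays outside DKO and reached 6.52, 6.22 and 6.40 in DKO (1.68 ± 0.20 (adjusted p = 0.00224)). With dim values raised to the 40th percentile the Ifi214 interaction was 0.34 (adjusted p = 0.516), and neither it nor Ifi213 was called. Ifi203 and Ifi209 rose in DKO without an interaction call (0.56 and 0.92). The 4 called genes lie within 5 consecutive places in the order of tested genes and may share probe sequence, so they may not be 4 separate responses. The calls of Ifi206 and Ifi213 were lost without E2AKO 1 and without WT 1, WT 2, E2AKO 1, E2AKO 2 or HEBKO 1, respectively. In the wider interferon-stimulated list only the 3 Schlafen genes were called among 18 members (0.632% of all genes tested were called). Irf7, Oasl2, Stat2 and Bst2 had interactions of 0.46, 0.36, -0.03 and 0.40, none past the test, and Gbp8, a guanylate-binding protein, fell in HEBKO and DKO.

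Among receptors of innate-like and cytotoxic cells, Cd226, an activating adhesion receptor, read 6.64, 7.05 and 7.13 in WT, 6.82 and 7.73 in E2AKO and 8.01 and 7.18 in HEBKO, against 10.42, 10.75 and 11.01 in DKO. E2AKO 2 and both HEBKO arrays were above all WT arrays, and DKO was above them all. The interaction was 2.80 ± 0.41 (adjusted p = 0.00874), a call lost without E2AKO 1. Among 11 tested NKT and cytotoxic genes it was the 1 called (0.632% of all genes tested were called). Zbtb16, the NKT factor PLZF, and Nkg7, a granule protein, rose in DKO by 0.59 and 1.89, with interactions of 1.02 ± 0.22 (adjusted p = 0.0681) and 1.5 ± 0.40 (adjusted p = 0.169).

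Notch target genes split. Dtx1, an E3 ligase induced by Notch, read 7.39, 7.16 and 7.07 in WT, 7.19 and 7.13 with E2A lost, 7.44 and 7.21 with HEB lost and 9.11, 8.58 and 8.64 with both lost, with an interaction of 1.5 ± 0.23 (adjusted p = 0.00979), a call lost without E2AKO 1 or E2AKO 2. It and Il2ra were the 2 called among 8 members of the Notch and pre-TCR list (0.632% of all genes tested were called). Nrarp, Heyl, Notch1 and Ptcra, the pre-TCR alpha chain, had interactions of 0.02, -0.02, 0.09 and 0.10 and no call in DKO.

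Enzymes, transporters and signalling proteins made up much of the rest. Elovl6, a fatty acid elongase, read 7.40, 7.50 and 7.32 in WT, 7.49 and 7.45 in E2AKO, 8.25 and 7.84 in HEBKO and, with both lost, 9.94, 10.13 and 10.25 (2.00 ± 0.19 (adjusted p = 0.000759)), with both HEBKO arrays above WT. Pde3b, a cyclic nucleotide phosphodiesterase, rose in HEBKO by 0.78 ± 0.14 and in DKO by 2.50 ± 0.12, above the sum by 1.54 ± 0.19 (adjusted p = 0.00326). Tent5c, a poly(A) polymerase, Gria3, a glutamate receptor subunit, and Rasa3, a Ras GTPase activator, had interactions of 2.33 ± 0.22 (adjusted p = 0.000759), 2.68 ± 0.32 (adjusted p = 0.00269) and 1.98 ± 0.29 (adjusted p = 0.00825). Trib2, a pseudokinase, and Ltb, which encodes lymphotoxin beta, were redundant: Trib2 was 9.33, 9.58 and 9.48 in WT, 9.46 and 9.49 in E2AKO and 9.33 and 9.64 in HEBKO, against 10.76, 10.76 and 10.85 in DKO. The drug efflux gene Abcb1a and its neighbour Rundc3b were both called (1.51 and 1.82). The call of Rasa3 was lost without E2AKO 1 and that of Ltb without E2AKO 1, and the other genes of this group passed without any 1 array.

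**Figure D2:**
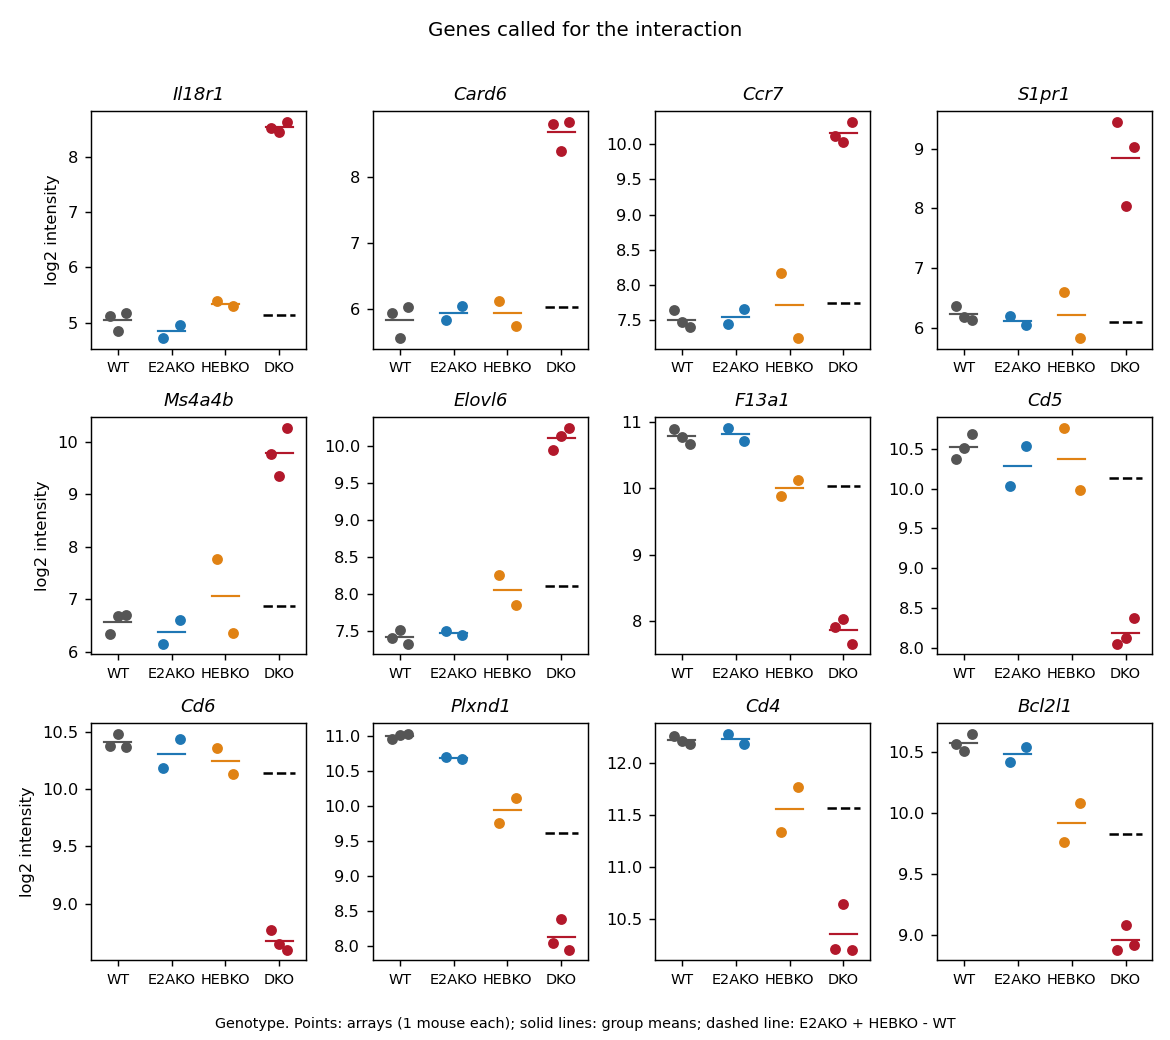
Log2 intensity of 12 genes called for the interaction, by genotype, with 1 point per array, solid lines at group means and a dashed line at the value expected from the sum of single losses. In Il18r1 the DKO arrays lie between 8.45 and 8.64 against an expected 5.14, and in Cd5 between 8.05 and 8.38 against 10.14.

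The genes that fell beyond the sum included 2 that tune T cell receptor signals, Cd5 and Cd6. Cd5, a surface inhibitor whose level tracks receptor signal strength in thymocytes, read 10.38, 10.52 and 10.68 in WT, 10.04 and 10.54 with E2A lost, 10.77 and 9.98 with HEB lost and 8.05, 8.12 and 8.38 with both lost. Both single losses overlapped WT, while the DKO arrays lay apart below all 7 others. That is 19.7% of WT where the log-additive sum gives 76.4%, an interaction of -1.96 ± 0.31 (adjusted p = 0.0129) that was not called without E2AKO 2. Cd6, a related scavenger-receptor protein encoded close to Cd5, read 10.38, 10.49 and 10.37 in WT, 10.18 and 10.43 in E2AKO, 10.36 and 10.13 in HEBKO and, with both lost, 8.77, 8.64 and 8.60, with an interaction of -1.47 ± 0.17 (adjusted p = 0.00224). With additivity taken on the linear scale neither Cd5 nor Cd6 was called. Cd6 was in the redundant class, and its call held without any 1 array.

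Nr4a1, Egr2 and Id3, also induced by receptor signals, leaned the same way without a call. Myc, another such gene, leaned upward at 0.72 ± 0.31 (adjusted p = 0.538). Nr4a1, an immediate early nuclear receptor, read 10.16, 9.69 and 9.64 in WT, 9.79 and 9.77 in E2AKO and 10.35 and 9.12 in HEBKO, against 7.98, 7.95 and 8.07 in DKO (-1.68 ± 0.38 (adjusted p = 0.097)). Egr2 and Id3, targets downstream of the receptor, had interactions of -1.38 ± 0.30 (adjusted p = 0.081) and -1.34 ± 0.37 (adjusted p = 0.192). Of 21 tested TCR-induced genes 2 had a negative call and 0 a positive one (0.122% and 0.51% of all genes tested), with a median of -0.26. In DKO 10 of them fell and 1 rose (5.41% of all genes tested fell). Dusp6, a phosphatase of ERK, and Myc were HEB-dominated, Dusp6 down (-0.71 in HEBKO and -1.38 in DKO) and Myc up (0.68 and 1.25). The 22 tested genes for receptor subunits and proximal kinases or adaptors had 0 calls by limma (5 at an unadjusted p under 0.05), with a median of 0.19.

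F13a1, the A chain of coagulation factor XIII, had the most negative interaction. It read 10.89, 10.77 and 10.66 in WT, 10.91 and 10.71 with E2A lost, 9.88 and 10.13 with HEB lost and 7.92, 8.03 and 7.66 with both lost, so E2A loss overlapped WT, HEB loss left 58.5% and loss of both left 13.4%, against 59.8% for the sum. The interaction was -2.16 ± 0.19 (adjusted p = 0.000759). Plxnd1, the plexin that guides migration of DP cells, read lower than WT in all 3 knockouts, at 10.97, 11.02 and 11.04 in WT, 10.70 and 10.67 in E2AKO, 9.76 and 10.12 in HEBKO and, with both lost, 8.05, 8.40 and 7.95. Its E2AKO difference of -0.32 ± 0.14 did not pass the test (limma adjusted p = 0.998). Its interaction of -1.49 ± 0.20 (adjusted p = 0.00595) came beside a called fall in HEBKO (-1.07 ± 0.14). Sema7a, a membrane semaphorin, was similar in form, with -0.72 ± 0.11 in HEBKO, -2.17 ± 0.10 in DKO and an interaction of -1.28 ± 0.16 (adjusted p = 0.00326). F13a1, Plxnd1 and Sema7a were not called on the linear scale.

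Coreceptor and recombination genes gave the calls of Cd4 and Lig4. Cd4 read 12.27, 12.22 and 12.19 in WT, 12.29 and 12.19 in E2AKO and 11.34 and 11.77 in HEBKO, against 10.21, 10.64 and 10.20 in DKO, with an interaction of -1.22 ± 0.22 (adjusted p = 0.0283). That call was lost without any 1 array other than HEBKO 1 or DKO 2, and CD4 stain was part of the sort. Lig4, the ligase of end joining, read 11.06, 11.23 and 10.89 in WT, 11.01 and 10.82 with E2A lost, 10.60 and 10.83 with HEB lost and 9.31, 9.54 and 9.37 with both lost, with an interaction of -1.16 ± 0.18 (adjusted p = 0.0138), lost without E2AKO 1 or HEBKO 2. Rag1 and Rag2, the recombinase genes, fell in DKO and had interactions of -1.12 ± 0.26 (adjusted p = 0.101) and -1.54 ± 0.35 (adjusted p = 0.0992), with Rag2 at 9.93 and 10.80 in the HEBKO arrays. Dntt, which adds bases at junctions, had -0.79 ± 0.22 (adjusted p = 0.207). Myb, a factor needed for DP survival, was called (-1.08 ± 0.18 (adjusted p = 0.0159)), a call lost without E2AKO 1, E2AKO 2 or HEBKO 2. Myb, Cd4 and Plxnd1 were the 3 negative calls among 19 DP-stage genes, whose median was -0.28 (0.122% of all genes tested had a negative call). Ets2 and Arpp21 stood at -1.19 ± 0.26 (adjusted p = 0.0729) and -1.26 ± 0.28 (adjusted p = 0.0888), past no threshold, and Satb1, Themis, Lef1 and Ikzf1 had values of 0.04, 0.07, 0.12 and -0.10.

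Survival genes gave 1 call among 17 (0.632% of all genes tested were called). Bcl2l1, which encodes Bcl-xL, read 10.57, 10.51 and 10.65 in WT, 10.42 and 10.54 in E2AKO, 9.76 and 10.08 in HEBKO and, with both lost, 8.88, 9.09 and 8.92. HEB loss alone gave 40.5% of the DKO fall, and the interaction was -0.87 ± 0.17 (adjusted p = 0.0464), a call kept without HEBKO 1 and lost without any other 1 array. Bmf, a pro-death gene, fell in DKO by 1.79 ± 0.22, of which HEBKO showed -0.84, with an interaction of -0.63 that did not pass. Lineage factors of CD4 and CD8 cells had 0 calls among 10 by limma (3 at an unadjusted p under 0.05), with Runx3, a CD8 lineage factor, nearest at 1.67 ± 0.35 (adjusted p = 0.0675) and Bcl6 and Gata3 at -0.90 and -0.70. Mr1, which presents vitamin metabolites to MAIT cells, and B3gnt5, a glycosphingolipid transferase, were among the other negative calls (-1.18 and -1.12), lost without WT 1, WT 2, WT 3, E2AKO 1, E2AKO 2, HEBKO 2, DKO 1 or DKO 3 and without WT 3, E2AKO 1 or HEBKO 2.

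A separate group showed most of its DKO change with loss of HEB and little with loss of E2A. HEB-dominated genes were those of the 276 with no interaction call, a HEBKO interval that excluded 0 on the side of the DKO change, at least 50% of that change in HEBKO and no more than 25% in E2AKO in either direction. There were 52 of them (18.8% of the 276 and 0.396% of the genes tested), 43 down and 9 up. Their median HEBKO share was 61.8% beside 5.09% for E2AKO, a description only, since the rule set bounds on both shares. Only 5 of the 52 had an interaction interval inside 1.5-fold, and the rest were unresolved for additivity. The same rule with E2A and HEB exchanged selected 0 genes, and 5 where no minimum of 1 log2 unit was set. E2AKO against WT was itself called for 0 genes by limma (smallest adjusted p = 0.998). The exchanged rule therefore had little to select from and does not weigh the 2 factors against each other. HEBKO against WT was itself called for 31 of the 52 (background 0.906%), a description only since the rule used that contrast, and DKO differed from HEBKO for 10 of them (background 3.63%). For 4 of them, Myzap, Gbp8, Igsf23 and Il17re, the 95% interval of DKO against HEBKO lay inside 1.5-fold. The count was 33 without HEBKO 1 and 98 without HEBKO 2, with 27 and 48 of the 52 still in it.

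Myzap, a cell-junction protein of heart muscle, read 7.88, 8.03 and 7.77 in WT, 7.94 and 8.07 in E2AKO and 6.33 and 5.79 in HEBKO, against 5.94, 5.85 and 6.25 in DKO. HEBKO and DKO overlapped, and their difference was -0.05 ± 0.17 (interval -0.41 to 0.32). Since 1 HEBKO array and 2 DKO arrays were below the dim mark, a further fall could have gone unseen. The Myzap probe set (10594840) is numbered close to that of Tcf12 (10594879), the gene targeted in HEBKO and DKO. Whether the altered Tcf12 locus itself had a part in the Myzap values was not tested. Gbp8 stayed bright and showed the same order, at 10.65, 10.63 and 10.60 in WT, 10.80 and 10.07 with E2A lost, 9.57 and 9.36 with HEB lost and 9.27, 9.91 and 9.37 with both lost. E2AKO 2 was low for it, between WT and HEBKO.

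Ion channel genes were among them. Of 16 tested ion channel and aquaporin genes 4 were HEB-dominated, where 0.396% of all genes tested were. These were Aqp11, Scn4b, Kcnh2 and P2rx1, in a list chosen with earlier results of these data known. P2rx1, an ATP-gated channel, read 7.85, 8.08 and 7.96 in WT, 7.80 and 7.97 in E2AKO, 6.36 and 7.26 in HEBKO and, with both lost, 6.49, 6.74 and 6.53, so that HEB loss gave 83.8% of the fall. Scn4b, a sodium channel subunit, read 7.88, 7.69 and 7.62 in WT, 7.92 and 6.88 in E2AKO and 6.53 and 6.60 in HEBKO, against 5.91, 5.73 and 6.10 in DKO. Its E2AKO arrays were more than 1 log2 unit apart. Aqp11, an intracellular water channel, had 9.98 and 8.76 in HEBKO and 8.95, 9.31 and 7.52 in DKO against 11.03, 11.19 and 11.06 in WT, too spread for its interaction of -0.36 ± 0.65 to be read as additive.

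Smoc1, a secreted calcium-binding protein, read 8.98, 9.31 and 8.97 in WT, 8.82 and 8.29 with E2A lost, 6.93 and 7.93 with HEB lost and 6.52, 6.24 and 6.50 with both lost, a graded fall in which DKO went below HEBKO by an estimate of -1.01 (adjusted p = 0.0476). Ldlrad3, Plxdc1 and Cbfa2t3, a corepressor that partners E proteins, were graded in the same manner, with DKO - HEBKO values of -0.96, -0.78 and -0.77. Cbfa2t3 has a second probe set with an interaction of 0.06 and a DKO difference of -0.66, against -0.38 and -1.73 for the one used. Fmnl2, a formin, had an interaction of -1.24 ± 0.25 (adjusted p = 0.0501) and was the first gene outside the threshold. Carns1 at 0.73 ± 0.14 (adjusted p = 0.0494) was the last one inside it.

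Rising HEB-dominated genes were 9. Vim, the intermediate filament vimentin, read 9.96, 10.23 and 9.73 in WT, 10.45 and 9.80 in E2AKO, 11.33 and 10.89 in HEBKO and, with both lost, 11.55, 11.36 and 11.81. The highest HEBKO array lay just below the lowest DKO array. Il17rb and the LIM-domain gene Lmo4 rose in DKO by 1.56 ± 0.22 and 1.48 ± 0.18, with HEBKO differences of 0.81 and 0.75.

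The 5 genes within the additive range, Hs6st1, Igsf23, Il17re, Kmo and Xbp1, were all HEB-dominated as well. Hs6st1, a heparan sulphate sulphotransferase, read 9.53, 9.57 and 9.55 in WT, 9.53 and 9.17 in E2AKO and 8.61 and 8.62 in HEBKO, against 8.32, 8.23 and 8.25 in DKO, where the sum gives 8.41. Its interaction interval was -0.49 to 0.20. Il17re, a chain of the interleukin 17C receptor, was 6.62 and 6.51 in HEBKO and 6.59, 6.31 and 6.22 in DKO against 7.52, 7.59 and 7.37 in WT, for an interaction interval of -0.54 to 0.43. Xbp1, a factor of the unfolded protein response, had -0.07 ± 0.22 with a DKO fall of 1.06 ± 0.14, and Kmo was below the dim mark in every DKO, HEBKO and E2AKO array. Array weights gave 13 genes in this range and renewed quantile normalisation 8.

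**Figure D3:**
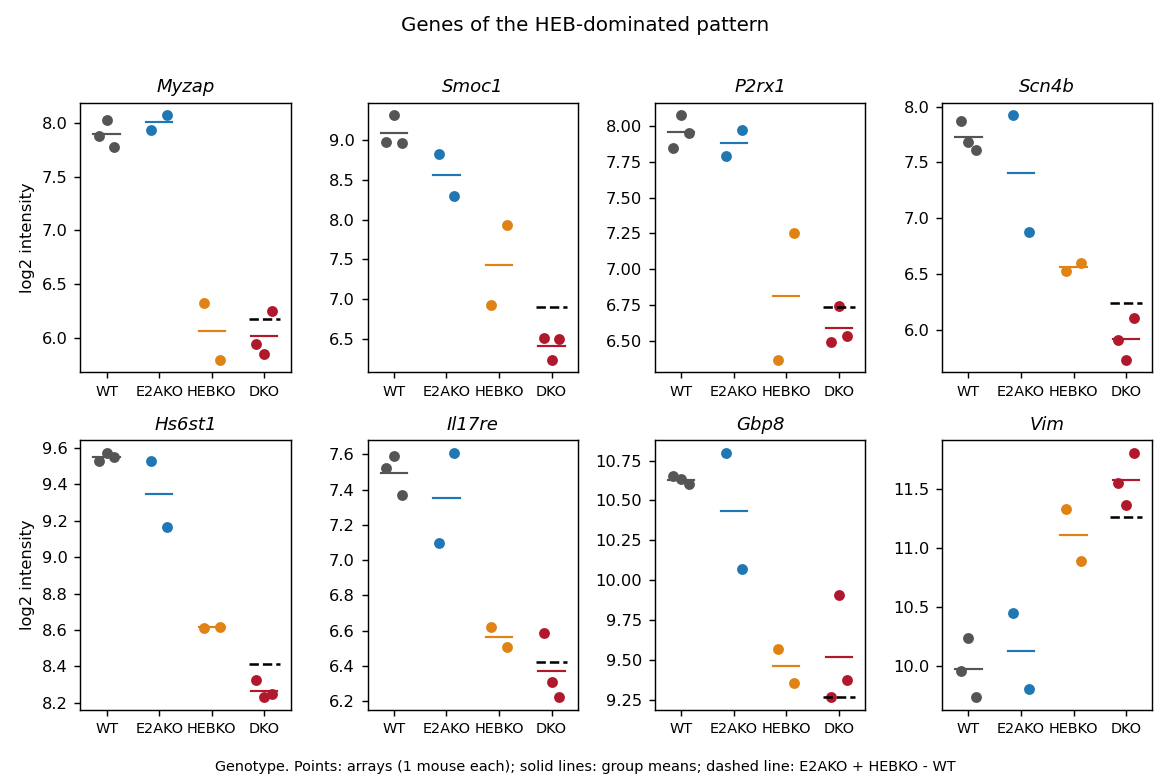
Log2 intensity of 8 HEB-dominated genes by genotype, with 1 point per array, solid lines at group means and a dashed line at the value expected from the sum of single losses. The HEBKO and DKO arrays of Myzap overlap, and the DKO mean of Hs6st1 lies near the expected 8.41.

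In a few genes HEB loss alone gave as large a change as loss of both, or a larger one. Lrig1, a negative regulator of growth factor receptors, read 9.19, 8.94 and 9.09 in WT, 9.07 and 9.24 with E2A lost, 7.71 and 8.12 with HEB lost and 8.69, 8.54 and 8.23 with both lost, so DKO lay between WT and HEBKO with no overlap. The difference DKO - HEBKO was 0.57 ± 0.16 (adjusted p = 0.0755) and the interaction 0.49 ± 0.22 (adjusted p = 0.57), neither past the test. Il21r, the interleukin 21 receptor, was 8.69 and 8.38 in HEBKO and 8.69, 8.82 and 8.82 in DKO, both below the 9.51, 9.56 and 9.55 of WT. Car2, a carbonic anhydrase, was under the dim mark in every HEBKO and DKO array. These 3 were named after their values were seen.

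Without the 1 log2 unit minimum, 1100 of the 1786 genes called in DKO (61.6%) were unresolved, 605 (33.9%) lay inside the additive range and 466 (26.1%) were HEB-dominated, a class that overlaps the other 2. Over all genes tested, called in DKO or not, 58.1% had an interaction interval inside that range. Cytosolic ribosomal protein genes had a median interaction of 0.03 over 20 members and median differences of 0.40 in HEBKO and 0.54 in DKO. In DKO 13 of the 20 rose, where 8.18% of all genes tested rose. Inside the additive range were 6 of those 13, beside the 33.9% of all genes called in DKO. One such gene was Rpl23 (0.41 in HEBKO, 0.54 in DKO, interaction 0.03). Proteasome genes (median -0.12 over 23) and respiratory chain genes (-0.10 over 25) were near 0.40 in HEBKO, at 0.43 and 0.39, and at 0.29 and 0.30 in DKO. Glycolysis genes had a median of 0.03 over 14. These 4 lists held 0 interaction calls by limma, and at an unadjusted p under 0.05 the ribosomal and respiratory lists held 0, the glycolysis list 1 and the proteasome list 2.

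Proliferation genes were the lists with the most negative medians, with 0 genes called by limma (4 and 2 at an unadjusted p under 0.05). The 25 S phase and replication genes had a median interaction of -0.51, with 0.55 in HEBKO and 0.08 in DKO, and the 23 mitosis genes had -0.54, with 0.40 and -0.23. By array, the mitosis median was 0.19 and -0.44 in E2AKO 1 and 2, -0.16, 0.26 and -0.08 in WT, 0.28 and 0.52 in HEBKO, and -0.17, 0.06 and -0.58 in DKO. The E2AKO arrays stood on opposite sides of the WT mean, and so did the DKO arrays. Without E2AKO 1 the medians were -0.25 and -0.20, and without E2AKO 2 they were -0.72 and -0.88. Serine and one-carbon genes had -0.28 over 10, with HEBKO arrays at 0.59 and 0.49 and DKO arrays at 0.35, 0.21 and 0.08. Shmt2, a mitochondrial enzyme of that route, was 0.90 in HEBKO and 0.86 in DKO.

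**Figure D4:**
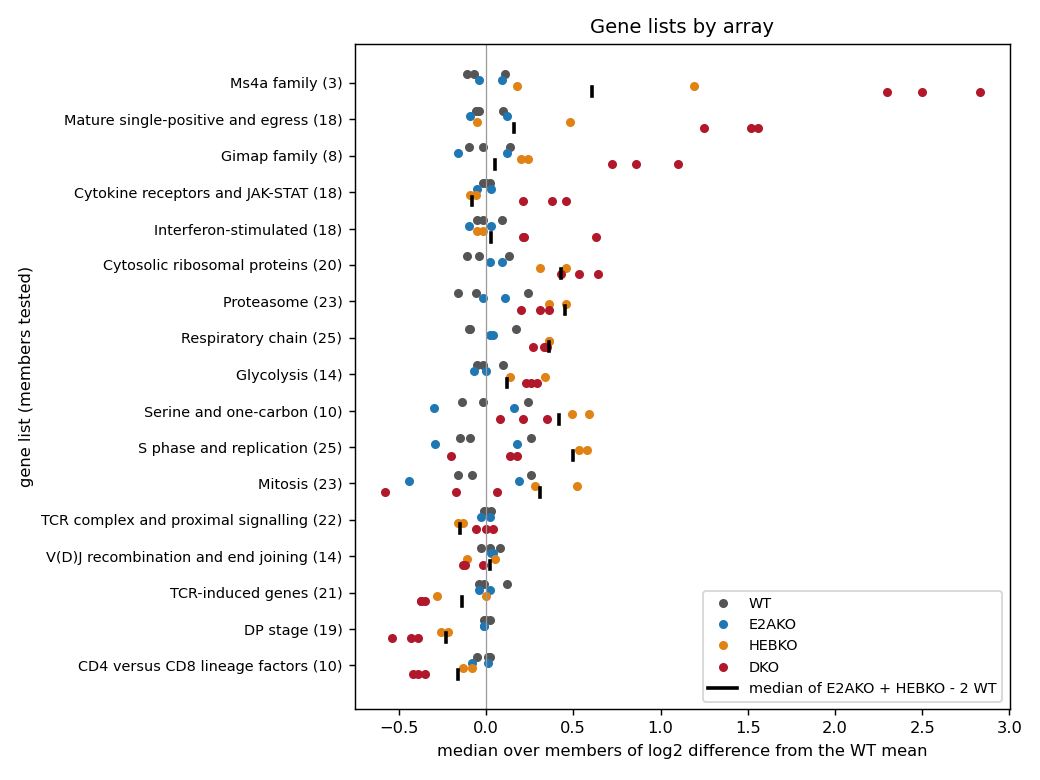
For 17 gene lists, each point is 1 array's median over the list's tested members of the log2 difference from the WT mean, and the black bar is the median of the sum of single losses. The mature single-positive list stands at 1.25 to 1.56 in the DKO arrays against -0.09 to 0.48 in the single knockouts, and the ribosomal list has HEBKO arrays at 0.31 and 0.46 beside DKO arrays at 0.43 to 0.64.

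Called genes lay next to each other in 8 places. Counting called genes no more than 3 places apart in the order of tested genes in GRCm38.p6, 19 of the 83 fell into such runs. These were the pair Il18r1 and Il18rap, the 4 Ifi200 genes, Slfn2 with Slfn1, Cd5 with Cd6, the 3 Ms4a genes, and Rundc3b with Abcb1a, each of 1 direction, and Myb with Sgk1 and Papss2 with Sgms1, of opposite directions. Family members in a run can share probe sequence, and how often other sets of genes form such runs was not tested. Cd5, Cd6 and the Ms4a genes are all on chromosome 19, with opposite signs.

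The motif CANNTG reads as CANNTG on both strands, and it includes the cores CAGCTG and CAGGTG. In windows of 300 bases, which add 50 bases after the start, it was present for 41 of 55 genes with a positive interaction call that had a RefSeq promoter entry (74.5%), 10 of 14 with a negative call (71.4%) and 22 of 39 HEB-dominated genes (56.4%). The share was 64.4% over the 10417 genes tested that had an entry and 72.1% over all 27025 promoters in the table. The core CAGCTG was in 23.6%, 28.6% and 12.8% of the windows of these groups, against 15.8% of the genes tested. The core CAGGTG, searched on both strands, was in 18.2%, 14.3% and 12.8%, against 18.5%. A match is a description of the window and not a site, and no difference between these shares was tested.

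Marker lists of cells outside the DP and later stages showed no interaction call except Il2ra, which 2 of them hold. B cell markers (4 of 9 on the array tested) summed to 481 to 543 intensity units in WT, 425 to 509 in E2AKO, 437 to 444 in HEBKO and 377 to 443 in DKO. Myeloid and dendritic markers (3 of 12 tested) summed to 338 to 343, 318 to 383, 285 to 323 and 256 to 268, and erythroid markers (3 of 4) to 274 to 290, 277 to 281, 261 to 263 and 238 to 273. Early thymocyte markers (12 of 16) summed to 1440 to 1610, 1470 to 1510, 1400 to 1510 and 1600 to 1800, with Il2ra among them. Thymic epithelial and stromal markers (11 of 13) ran from 2300 to 2480, 2150 to 2530, 2140 to 2190 and 2340 to 2390. Gamma-delta and regulatory T markers (8 of 9) ran from 1850 to 1860, 1770 to 1820, 2140 to 2530 and 2080 to 2300. The first 3 of these lists were lower in DKO than in WT on every array, and the part of early, gamma-delta or regulatory cells in the results was not tested.

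Kcnma1, a potassium channel gene with the highest mean difference of DKO from WT, could not be classed. It read 12.99, 12.19 and 4.97 in DKO against 4.69, 4.79 and 4.84 in WT, so 1 DKO array was at the WT level, and its interaction was 3.85 ± 2.45 (adjusted p = 0.76). Its second probe set had an interaction of -0.01.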

How the data were processed

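Labelled RNA of sorted DP thymocytes from 10 mice was hybridised to 1 Affymetrix array each. The authors deposited linear RMA intensity values, per the submitters' processing notes (version and genome build not given in the sources used here). The log2 of each deposited value was taken without a constant. Of 34760 probe sets, 21640 carried 1 symbol, 1321 several and 11799 none, and where several read 1 of the 19937 named genes, the 1 of highest mean log2 value was kept. RMA shrinks differences near background, which can understate changes of dim genes.

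With limma 3.58.1 (R 4.3.3), the 4 genotype means were estimated from all 10 arrays, moderated by eBayes (6 residual and 5.68 prior degrees of freedom), so all groups share 1 estimate of the spread. P-values are two-sided and adjusted by the Benjamini-Hochberg method over the 13138 genes tested, separately for each of 7 contrasts. Errors are SE from the fit, and the number of arrays limits the precision. The steps were tested on simulated data.

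Named genes were the 12 most positive and 12 most negative calls whose DKO arrays lay beyond all others, up to 4 called members per list, the largest of each class and a fixed set. Members of a list or gene family, genes within runs, and Abcb1a, Rundc3b, Rasa3, Pde3b, Trib2, Ltb, Il17rb, Lmo4, Carns1, Tdrp and Cldn4 were named after their values were seen. The genes, the 33 lists and the tests were chosen with earlier results of these data known. Promoters came from RefSeq (GRCm38.p6).

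Alternatives were another filter on dim probe sets, renewed normalisation, the mean of probe sets, trend and robust moderation (statmod 1.5.0), array weights, a pseudocount of 32, linear values divided by the WT mean, the replicate number as a block, sex as a term, other class bounds and each array left out. Raising dim values to the 40th percentile and the list medians under all of these were added after the data were seen.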

Additional observations from a re-analysis of the deposited data

Results flagged for a closer look

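The interaction is itself a test of whether the effect of losing HEB differs with and without E2A, and by limma it differed for 67 genes in the positive and 16 in the negative direction. The same model over all 22308 probe sets that passed the filter called 23 of them (0.103%). Outside the named genes it called 3 of 8073 probe sets without a single gene symbol (0.0372%), all positive. The first read 6.46, 6.83 and 6.75 (log2 intensity) in WT, 6.54 and 6.89 with E2A lost, 7.37 and 6.78 with HEB lost and 9.47, 9.60 and 9.96 with both lost, an interaction of 2.56 ± 0.31 (SE, limma adjusted p = 0.0286). The other 2 had interactions of 1.10 ± 0.15 (adjusted p = 0.0462) and 0.92 ± 0.12 (adjusted p = 0.0414). In all 3 the DKO arrays lay above the 7 others, and what these probe sets measure was not tested.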

How the results depend on the processing

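The count of 83 interaction calls (67 positive, 16 negative) stayed within 1.5 times under the other filters, normalisations, moderation, weights, pseudocount and the sex term. It was 23 (22 and 1) on the linear scale, where classes were not run. Fitted and adjusted over all 22308 probe sets in place of genes, the model called 23 probe sets. Without 1 array the count of genes ranged from 27 to 121, positive calls from 22 to 86 and negative calls from 5 to 35, lowest without E2AKO 1 and highest without HEBKO 1. With the replicate number as a block it was 43 (35 and 8), with 40 of the 83 among them (18 redundant, 14 with a single-loss effect, 8 additive). Deviations from the group means correlated above 0.1 in 10 of 13 same-numbered pairs and at 0.1 or less in 3 (range -0.29 to 0.48). The labels do not say that these numbers pair mice, so the main fit has no block. Whether same-numbered arrays shared a batch was not tested. Of the 83 genes, 13 were called in all 23 settings and 24 without any 1 array (20 up, and Cd6, F13a1, Plxnd1 and Sema7a). On the linear scale Cd6, F13a1, Plxnd1 and Sema7a were not called. In the settings run, 0 called genes turned sign.

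The classes moved more. Without 1 array the redundant class held 8 to 31 genes, the class with a single-loss effect 10 to 27, that with unresolved single losses 7 to 42, the additive one 2 to 12, the unresolved one 174 to 246 and the HEB-dominated one 33 to 98. A bound of 2-fold gave 52 redundant, 12 with a single-loss effect, 3 with unresolved single losses and 49 additive. The additive class held 8 with renewed quantile normalisation and 13 with array weights. With no minimum change, 605 genes were additive, 1100 unresolved and 466 HEB-dominated. Groups of 2 arrays limit all of these.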
